A study of Arabidopsis thaliana with 6 samples.

Results

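Aquaporins are channel proteins that let water, and in some isoforms small neutral solutes, cross plant membranes. The 10 aquaporin genes described here were taken by their identifiers from the 36917 genes in the files, and they comprise 6 genes of the plasma membrane intrinsic proteins (PIP1-1, PIP1-2, PIP2-1, PIP2-2, PIP2-3 and PIP2-4) and 4 genes of the tonoplast intrinsic proteins (TIP1-1, TIP1-2, TIP2-2 and TIP2-3). The isoform number is written here after a hyphen, where the usual plant spelling has a semicolon. By textbook knowledge, 5 of them are expressed mainly in roots (PIP2-2, PIP2-3, PIP2-4, TIP2-2 and TIP2-3, called root-enriched), and the other 5 in roots and shoots alike (called general). The RNA came from 6-day-old Arabidopsis thaliana seedlings, with 3 libraries of the wild type Col-0 and 3 of an amiR-mterf2 mutant in the Col-0 background, in which an artificial microRNA is directed against MTERF2. MTERF2 encodes a chloroplast protein of the mitochondrial transcription termination factor family. All seedlings had been raised in long days on agar medium that contained sucrose, and the labels do not say that roots and shoots were separated. The mutant libraries are described as coming from 1 transgenic line, amiR1-3, with a partial and not a complete loss of MTERF2 transcripts.

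PIP proteins of the PIP2 group form water channels in the plasma membrane on their own, while PIP1 proteins depend largely on PIP2 partners to reach that membrane. TIP proteins sit in the tonoplast, the membrane of the vacuole, and let water move between the cytosol and the vacuole as cells take up water and expand. In roots, PIP isoforms set much of the water flow from soil to xylem, and several isoforms are regulated at the transcript level by light, carbon supply and water status.

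The channel pore of each aquaporin is lined by loops that carry asparagine, proline and alanine in a row, the signature of the family. Each of the 10 coding sequences held the codons of this triplet in frame 2 times in the TAIR10.1 reference. The first copies are shown because they let the members be compared at the one element that all of them share. Each line gives 27 bases, 5′ to 3′ on the coding strand, with the triplet's codons in capitals.
PIP1-1: ggacacatcAACCCAGCGgttactttt
PIP1-2: ggacacatcAACCCAGCGgttacgttc
PIP2-1: ggtcacattAACCCAGCGgtgacattt
PIP2-2: ggtcacataAACCCTGCGgtgacgttt
PIP2-3: ggtcacataAACCCTGCGgtgacgttt
PIP2-4: ggtcatataAATCCGGCTgtgacggtg
TIP1-1: ggacacgttAACCCTGCCgtcactttc
TIP1-2: ggccacgttAACCCTGCCgttaccttc
TIP2-2: ggacaccttAACCCCGCCgtgacactc
TIP2-3: ggtcaccttAACCCAGCCgtgactctt
The windows of PIP2-2 and PIP2-3 were identical to each other. In PIP2-2 this window lies at chr2:15614341-15614367 on the minus strand, in PIP2-3 at chr2:15618203-15618229 on the plus strand, and in TIP2-2 at chr4:9699555-9699581 on the plus strand.

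PIP2-2 (AT2G37170, chromosome 2, 15613368 to 15615022, minus strand) and PIP2-3 (AT2G37180, chromosome 2, 15617635 to 15619155, plus strand) are neighbours, with 2612 bases and 0 annotated genes between them. Of the 858 coding bases of PIP2-3, 813 were identical in PIP2-2. Their longest identical stretch within 1 exon was 127 bases, at chr2:15614491-15614617 in PIP2-2 and chr2:15617953-15618079 in PIP2-3. It is shown because the pair cannot be told apart in it. With the exons joined, the longest identical run of the coding sequences was 242 bases, and the 127 bases are its start.
Shared exon stretch: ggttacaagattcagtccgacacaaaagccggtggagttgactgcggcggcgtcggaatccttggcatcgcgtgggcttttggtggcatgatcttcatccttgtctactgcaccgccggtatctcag
Of all 50-base windows in the exons, 14.7% of those of PIP2-2 and 16.5% of those of PIP2-3 occur a further time in the genome. The other 8 members had 0 such windows, so that PIP2-2 and PIP2-3 are the members whose counts may be uncertain in this respect. The windows, which do not span exon junctions, and the stretch of 127 bases are shorter than the sequenced reads. The run of 242 bases is longer than a read, so that a read can lie wholly within it. Its mate may still reach bases that differ, and the reads affected were not counted. No annotated gene overlaps any of the 10 members.

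The libraries held between 18004935 and 21832003 counts on genes, of which 37.6% to 40.9% fell on nuclear genes. Levels are given in CPM, the count of a gene relative to the total of its library after TMM scaling, and a floor of 3 counts is 0.140 to 0.175 CPM. The 10 aquaporin genes took between 0.598% and 0.734% of the nuclear counts in Col-0 and between 0.611% and 0.619% in amiR-mterf2. Differences between genotypes were tested on 17902 genes by the quasi-likelihood method of edgeR, with p-values adjusted by Benjamini-Hochberg, and SE stands for the standard error of a log2 fold change. The targeted gene MTERF2 stood at 2.25, 1.80 and 2.71 CPM in Col-0 and at 1.87, 0.780 and 0.427 CPM in amiR-mterf2, from 58 counts or fewer per library. Mutant replicate 1 thus lay above Col-0 replicate 2, and the difference did not pass the threshold of 0.05 (log2 fold change -1.15, adjusted p = 0.0837, edgeR), although it did without Col-0 replicate 2 (-1.29, adjusted p = 0.0264, edgeR). Col-0 replicate 2 stood apart: over nuclear genes it differed from Col-0 replicates 1 and 3 by a mean chi-square of 25.2 and 24.3 per gene, against 3.03 between those 2 libraries. The root hair genes COBL9, EXPA7, EXPA18 and RHD6 had 176, 69, 204 and 13 counts in that library, and at most 12 counts in any other. Results for single members are therefore also given without it.

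Of the 10 members, 9 had enough counts to be tested. In amiR-mterf2, 5 of them fell (PIP2-1, PIP2-2, PIP2-4, TIP1-1 and TIP2-2), 1 rose (TIP1-2) and 3 did not pass the threshold (PIP1-1, PIP1-2 and PIP2-3). Among all tested genes, 18.2% were lower and 18.1% higher (36.4% in either direction) at the same threshold (edgeR, adjusted p under 0.05). The 9 members had a median log2 fold change of -0.52, and all tested genes one of -0.02. Without Col-0 replicate 2, which also brought PIP1-2 past the threshold, the numbers were 6 lower and 1 higher, with a median of -0.30, while of all 18303 genes tested in that fit 20.8% were lower and 22.1% higher (edgeR). In 8 of the 9 the libraries of the genotypes did not overlap, as in 49.4% of all tested genes.

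**Figure D1:**
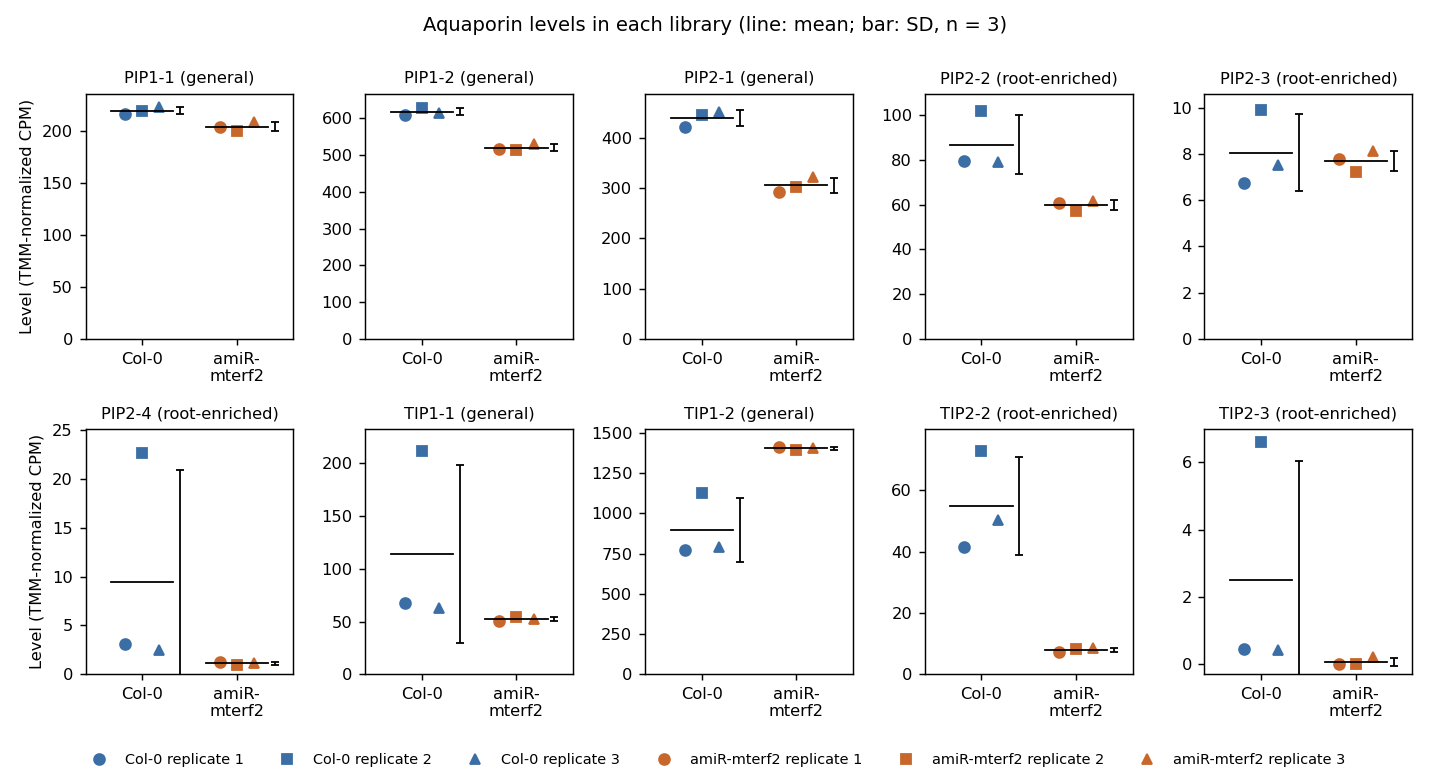
TMM-normalized CPM of each member (vertical axis, from 0 except for TIP2-3) in the Col-0 and amiR-mterf2 libraries. Points are libraries, horizontal lines are means and bars are the SD (n = 3, cut at the axis for PIP2-4 and TIP2-3); Col-0 replicate 2 (square) lies far above the other Col-0 libraries for PIP2-4, TIP1-1 and TIP2-3, and TIP2-2 lies between 7.36 and 8.59 in every amiR-mterf2 library.

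Among the tonoplast isoforms, TIP2-2 showed the clearest fall. TIP2-2 (AT4G17340, chromosome 4, 9698940 to 9700472, plus strand) is a vacuolar water channel of roots with a known permeability to ammonia in its group. Its level was 41.6, 72.8 and 50.4 CPM in Col-0 replicates 1 to 3 and 7.36, 8.29 and 8.59 CPM in amiR-mterf2 replicates 1 to 3. Every mutant library thus lay far below every wild-type library. The mean went from 54.9 ± 16.1 to 8.08 ± 0.644 CPM (SD, n = 3), with a fitted log2 fold change of -2.76 (SE 0.200, edgeR adjusted p = 2.06e-06). TIP2-2 was lower and past the threshold in all 13 alternative fits, between -2.92 and -2.50 on the log2 scale, and without Col-0 replicate 2 its log2 fold change was -2.50. Which cells the TIP2-2 transcripts came from was not measured in these seedling samples. For transcripts from root cells, fewer root cells in the sample and less RNA per root cell cannot be told apart.

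Most of the tested markers of root tissue were lower as well. The summed level of 17 root marker genes was between 74.6 and 110 CPM in Col-0 and between 28.2 and 31.4 CPM in amiR-mterf2, a ratio of means of 0.347. Of the 11 root markers tested, 3 did not pass the threshold, 0 were higher and 8 were lower (edgeR). The lower ones included 5 genes of the Casparian strip membrane domain (CASP1 to CASP5) and PHO1, which loads phosphate into the xylem. Together with PRX64, also lower, these genes made up most of the sum in every library. The sum, and each ratio to it, thus describes mainly these genes and not root tissue in general. ESB1, SKOR and SMB had at most 5, 14 and 2 counts in any library and were not tested. MYB36, CO2 and PIN2 did not pass, with log2 fold changes of 0.04, -0.18 and -0.23. Without Col-0 replicate 2 these were -0.28, 0.13 and 1.56, none of them past the threshold (edgeR). PHO1 fell from 18.1 ± 1.56 to 4.91 ± 0.809 CPM (SD, n = 3) and CASP1 from 17.9 ± 2.71 to 6.11 ± 0.832 CPM (SD, n = 3). EXPA7 and RHD6 were at 0 counts in all libraries but Col-0 replicate 2. Divided by the summed root markers, a ratio chosen after the values were seen, TIP2-2 stood at 0.557, 0.661 and 0.652 in Col-0 and at 0.236, 0.294 and 0.274 in amiR-mterf2. This ratio was lower in each mutant library than in each wild-type library, for the sum of the markers. Single markers of the list had log2 fold changes close to that of TIP2-2 or lower. The values were -2.70 (SE 0.446) for CASP4 and -6.39 (SE 1.55) for COBL9, which was -3.64 without Col-0 replicate 2 (edgeR). COBL9 was counted 10, 176 and 12 times in Col-0 against 0, 0 and 2 times in amiR-mterf2. CASP4 had 51, 68 and 66 counts against 8, 4 and 14. Both passed the filter on low counts through Col-0 alone, so that a fall was favoured by how they entered.

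TIP2-3 (AT5G47450, chromosome 5, 19248249 to 19249622, minus strand), the nearest relative of TIP2-2 among the members, was counted 10, 121 and 9 times in the Col-0 libraries, against 0, 0 and 4 times in amiR-mterf2. It was too low for the filter on low counts. In the fit of all libraries without that filter its log2 fold change was -4.98 (SE 1.122, edgeR adjusted p = 0.00219), and of the 5 alternatives that tested it, all with a negative estimate, 3 called it (edgeR adjusted p = 0.00219 to 0.0737). TIP2-3 was not tested without Col-0 replicate 2, which all 5 of these fits kept. Where the filter applied, TIP2-3 passed it through Col-0 alone, so that these fits are no separate support for a fall. A count of 0 allows up to 3 counts, that is 0.175 CPM in amiR-mterf2 replicate 1 and 0.146 CPM in replicate 2. Most of its wild-type counts came from Col-0 replicate 2, and the remaining Col-0 libraries stood at 0.469 and 0.421 CPM against at most 0.213 CPM in the mutant.

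TIP1-1 and TIP1-2, the gamma-type vacuolar channels of most vegetative cells, went in opposite directions. TIP1-2 (AT3G26520, chromosome 3, 9722443 to 9723904, minus strand) had 772, 1124 and 792 CPM in Col-0 and 1412, 1394.5 and 1402 CPM in amiR-mterf2. All mutant libraries were above all wild-type libraries, and it was the only member that rose. The mean went from 896 ± 197 to 1403 ± 8.68 CPM (SD, n = 3), with a fitted log2 fold change of 0.65 (SE 0.139, edgeR adjusted p = 0.00405), and it was 0.85 without Col-0 replicate 2. TIP1-1 (AT2G36830, chromosome 2, 15445294 to 15446621, plus strand) had 67.6, 212 and 62.7 CPM in Col-0 and 51.0, 54.6 and 52.2 CPM in amiR-mterf2. Its fall was called (log2 fold change -1.11, SE 0.376, adjusted p = 0.0387, edgeR), yet its size rested on Col-0 replicate 2. Without that library the log2 fold change of TIP1-1 was -0.30 (adjusted p = 0.00173, edgeR). The call was lost without amiR-mterf2 replicate 1, 2 or 3 (adjusted p = 0.125, 0.116 and 0.119) and with the DESeq2 Wald test (adjusted p = 0.120), within a range of 0.00173 to 0.125 over all alternatives (edgeR and DESeq2). Within each library, TIP1-2 had 11.4, 5.31 and 12.6 counts per count of TIP1-1 in Col-0, and 27.7, 25.5 and 26.9 in amiR-mterf2. The balance of this pair was thus further on the side of TIP1-2 in all 3 mutant libraries.

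The starts of TIP2-2 and TIP1-2 are shown because these genes had the clearest fall and the rise among the members. Each line gives the 250 bases before the annotated start in TAIR10.1, 5′ to 3′ on the coding strand, at chr4:9698690-9698939 (plus strand) for TIP2-2 and chr3:9723905-9724154 (minus strand) for TIP1-2. Capitals mark any match, on either strand, to 7 short motifs. These were the ABRE core ACGTG and the G-box CACGTG, which contains it, then the telo-box AAACCCT, the TATA box TATAAA, the DRE core ACCGAC, the site II element TGGGCC and the I-box GATAAG.
TIP2-2 upstream: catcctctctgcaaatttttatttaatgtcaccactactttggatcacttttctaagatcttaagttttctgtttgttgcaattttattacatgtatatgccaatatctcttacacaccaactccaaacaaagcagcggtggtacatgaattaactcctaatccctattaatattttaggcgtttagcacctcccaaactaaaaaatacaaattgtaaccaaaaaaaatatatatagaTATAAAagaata
TIP1-2 upstream: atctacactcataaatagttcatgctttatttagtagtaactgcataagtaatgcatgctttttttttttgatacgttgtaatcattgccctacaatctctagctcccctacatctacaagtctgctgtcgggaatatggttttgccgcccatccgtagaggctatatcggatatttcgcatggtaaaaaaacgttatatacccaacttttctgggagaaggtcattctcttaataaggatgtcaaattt
The window of TIP2-2 held TATAAA, which occurs in 47.3% of the 27443 windows of the same length before nuclear protein-coding genes, and the window of TIP1-2 held 0 of the 7. Among all 10 members, TATAAA was found in 3 (PIP1-2, PIP2-3 and TIP2-2), GATAAG in 3 (PIP1-1, PIP1-2 and TIP2-3) against 12.3% of all windows, and ACCGAC and ACGTG in 1 each, TIP1-1. These are letter matches only.

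The general plasma membrane isoforms differed in how far they moved. PIP2-1 (AT3G53420, chromosome 3, 19803473 to 19805730, minus strand), an abundant water channel of roots and guard cells that also passes hydrogen peroxide, had 420.4, 445 and 451 CPM in Col-0 and 293, 302.5 and 321 CPM in amiR-mterf2. The libraries of the genotypes were well apart. Its mean fell from 439 ± 16.3 to 305 ± 14.5 CPM (SD, n = 3), with a fitted log2 fold change of -0.52 (SE 0.0957, edgeR adjusted p = 0.00150), and PIP2-1 was past the threshold in all 13 alternatives. PIP1-2 (AT2G45960, chromosome 2, 18910081 to 18911982, plus strand), which contributes to root water uptake and to the passage of CO2 in leaves, had 610, 629 and 614 CPM in Col-0 and 516, 513 and 531 CPM in amiR-mterf2. Its libraries did not overlap either, but the log2 fold change of -0.25 (SE 0.0904) missed the threshold (adjusted p = 0.0518, edgeR). It passed in 5 of the 13 alternatives, over which edgeR and DESeq2 gave an adjusted p of 6.36e-05 to 0.177, and without Col-0 replicate 2 it was -0.23 (adjusted p = 6.36e-05, edgeR). PIP1-1 (AT3G61430, chromosome 3, 22733243 to 22735394, plus strand), a further PIP1 partner isoform, went from 216, 219 and 223 CPM in Col-0 to 204, 200.4 and 209 CPM in amiR-mterf2. Its log2 fold change of -0.10 (SE 0.0929, edgeR adjusted p = 0.419) passed in 0 of the 13 alternatives.

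The root-enriched plasma membrane isoforms ranged from no detectable difference to a fall whose size rested on 1 library. PIP2-2, a contributor to osmotic water flow through root cells, had 79.4, 102 and 78.7 CPM in Col-0 and 60.5, 57.2 and 61.6 CPM in amiR-mterf2. All mutant libraries lay below all wild-type libraries, and the log2 fold change was -0.54 (SE 0.123, edgeR adjusted p = 0.00591), or -0.40 without Col-0 replicate 2. PIP2-3, also named RD28 after its response to desiccation, had 6.75, 9.91 and 7.52 CPM in Col-0 and 7.77, 7.22 and 8.11 CPM in amiR-mterf2. The genotypes overlapped for PIP2-3 (log2 fold change -0.06, SE 0.175, adjusted p = 0.804, edgeR), and the estimate was 0.11 without Col-0 replicate 2. With the counts of both neighbours added together, because of the stretches they share, the log2 fold change was -0.49 (SE 0.124, edgeR adjusted p = 0.0100).

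Within libraries, the log2 ratio of PIP2-2 to PIP2-3 counts was 3.56, 3.36 and 3.39 in Col-0 and 2.96, 2.99 and 2.93 in amiR-mterf2. The ratio was lower in every mutant library, by 0.48 on average, and the difference stayed between -0.51 and -0.42 when any single library was removed. A read misassigned between the pair moves this ratio, and how the counting treated such reads is not given in the sources used here.

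PIP2-4 (AT5G60660, chromosome 5, 24375368 to 24377206, minus strand) is a root isoform. It was counted 66, 415 and 54 times in the Col-0 libraries, against 21, 20 and 22 times in amiR-mterf2, or 3.10, 22.6 and 2.52 CPM against 1.23, 0.975 and 1.17 CPM. The mutant libraries were the lower ones throughout, while Col-0 replicate 2 alone set most of the difference. The log2 fold change was -3.05 (SE 0.769, edgeR adjusted p = 0.00970) with all libraries and -1.32 (SE 0.362, edgeR adjusted p = 0.00476) without Col-0 replicate 2. Without amiR-mterf2 replicate 2 the call was lost (log2 fold change -2.94, adjusted p = 0.0559, with 8.69e-04 to 0.0559 over all alternatives, edgeR and DESeq2). Divided by the summed root markers, PIP2-4 stood at 0.0415, 0.205 and 0.0326 in Col-0 and at 0.0394, 0.0345 and 0.0374 in amiR-mterf2. The mean ratio was 0.0932 ± 0.0973 in Col-0 and 0.0371 ± 0.00244 in amiR-mterf2 (SD, n = 3), and without Col-0 replicate 2 the Col-0 mean was 0.0371.

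**Figure D2:**
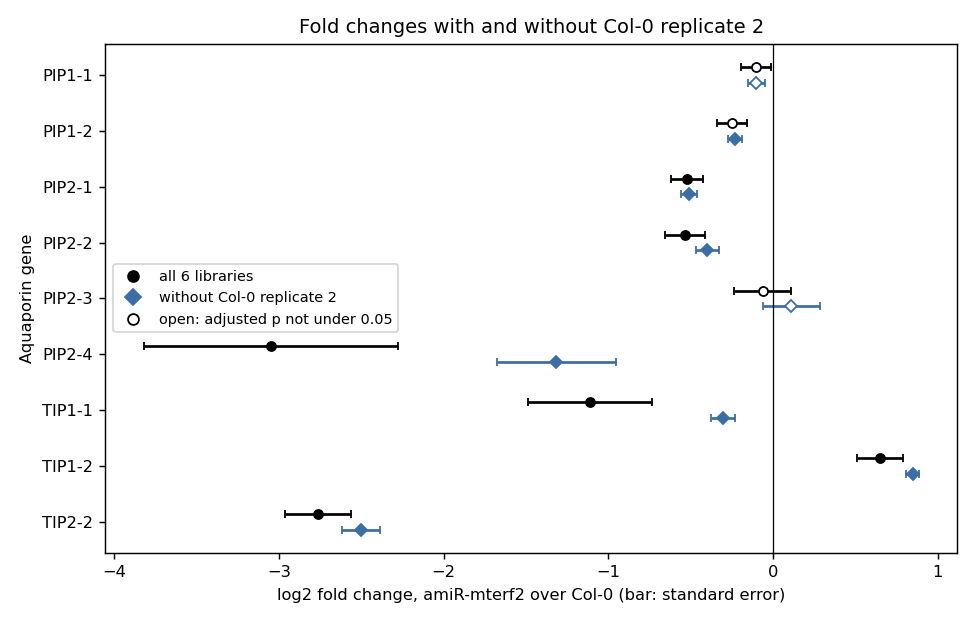
Log2 fold change of each tested member (amiR-mterf2 over Col-0, horizontal axis, bars are standard errors) with all 6 libraries (circles) and without Col-0 replicate 2 (diamonds). Filled symbols have an adjusted p under 0.05; PIP2-4 moves from -3.05 to -1.32 and TIP1-1 from -1.11 to -0.30, whereas TIP2-2 stays at or below -2.50.

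The root-enriched isoforms were compared with the general ones through their summed levels. The 5 root-enriched genes summed to 131, 214 and 139.6 CPM in Col-0 and to 76.9, 73.7 and 79.7 CPM in amiR-mterf2. The 5 general genes summed to 2087, 2628 and 2143 CPM in Col-0 and to 2475, 2465 and 2516 CPM in amiR-mterf2. The root-enriched sum was thus lower in every mutant library, whereas the general sums overlapped between the genotypes through Col-0 replicate 2 alone. Col-0 replicates 1 and 3 lay below every mutant library in the general sum, and the log2 ratio of its means went from 0.12 to 0.23 without replicate 2. The log2 ratio of the root-enriched to the general sum was -3.85 ± 0.20 in Col-0 and -5.02 ± 0.04 in amiR-mterf2 (SD, n = 3), and the difference of -1.17 is a description of these libraries, without a test. It was -1.05 without Col-0 replicate 2 and -0.58 with PIP1-1, which is strong in roots as well, counted as root-enriched, and it was -2.89 when PIP2-2 and PIP2-3 were left out. Of the general sum, TIP1-2 took more in amiR-mterf2 and the PIP genes less.

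The summed root markers, at 30.2 ± 1.74 CPM in amiR-mterf2 and 87.3 ± 19.7 CPM in Col-0 (SD, n = 3), moved with the root-enriched sum. Most of the marker sum came from CASP1 to CASP5, PRX64 and PHO1. Per unit of summed root markers, the root-enriched sum was 1.84 ± 0.0945 in Col-0 and 2.54 ± 0.0694 in amiR-mterf2 (SD, n = 3). The same ratio for PIP2-2 alone was 1.00 ± 0.0711 in Col-0 and 1.98 ± 0.0420 in amiR-mterf2 (SD, n = 3), whereas for TIP2-2 it was 0.624 ± 0.0577 and 0.268 ± 0.0291 (SD, n = 3). Shoot markers were also followed: of the 14 tested, 2 were higher and 1 lower in amiR-mterf2 (edgeR), and the sum of all 16 was between 8587 and 12117 CPM in Col-0 and between 12405 and 12671 CPM in amiR-mterf2, most of it from LHCB1 genes of the light-harvesting antenna. Of 4 seed storage genes, 3 were tested and 2 were higher, and their sum was 7.59 ± 0.737 CPM in Col-0 and 17.04 ± 1.16 CPM in amiR-mterf2 (SD, n = 3). The part of root, shoot or seed tissue in the aquaporin results was not tested beyond these ratios.

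**Figure D3:**
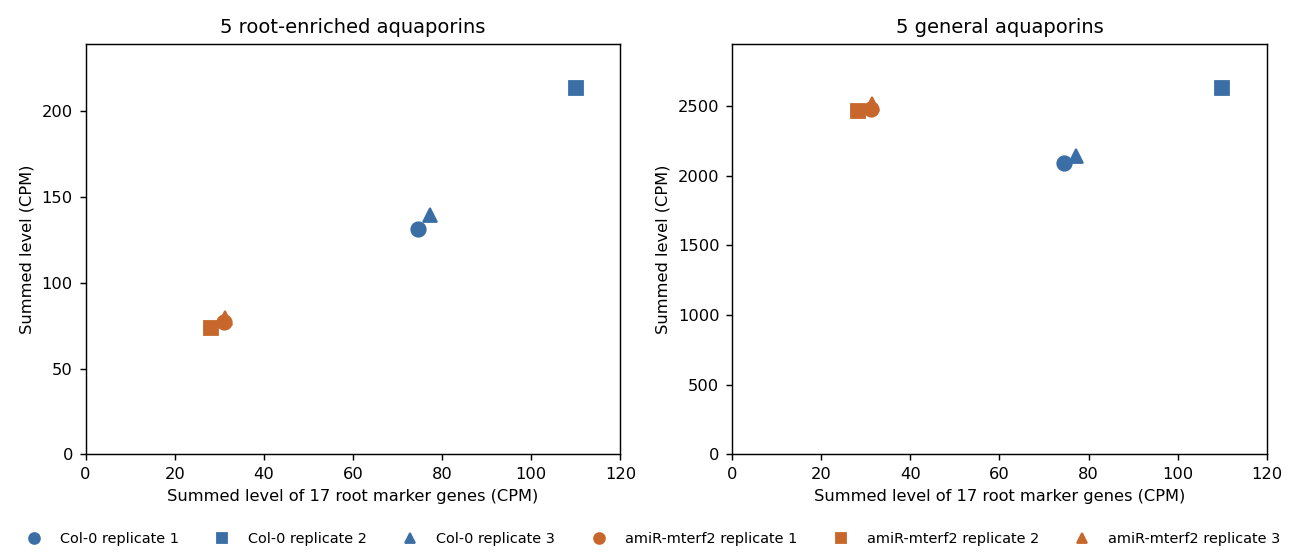
Summed CPM of the 5 root-enriched (left) and the 5 general (right) aquaporin genes against the summed CPM of 17 root marker genes, 1 point per library. Most of the marker sum comes from CASP1 to CASP5, PRX64 and PHO1. The amiR-mterf2 libraries sit at 28.2 to 31.4 CPM of root markers and 73.7 to 79.7 CPM of root-enriched aquaporins, below all Col-0 libraries on both axes, while the general sums of the genotypes overlap through Col-0 replicate 2.

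Levels of different genes were compared per kilobase of annotated exon. In Col-0, TIP1-2 led with 695 ± 153 CPM per kilobase (SD, n = 3), followed by PIP1-2 (387 ± 6.02), PIP2-1 (279 ± 10.3), PIP1-1 (141 ± 2.27), TIP1-1 (92.2 ± 68.4), PIP2-2 (64.4 ± 9.77) and TIP2-2 (40.6 ± 11.9). PIP2-3 (6.61 ± 1.35), PIP2-4 (6.50 ± 7.89) and TIP2-3 (2.13 ± 3.03) were far lower in CPM per kilobase. Neighbours in this order overlapped between PIP1-1 and TIP1-1, between TIP1-1 and PIP2-2, between PIP2-3 and PIP2-4, and between PIP2-4 and TIP2-3, and the remaining neighbours did not. In amiR-mterf2, TIP1-2 was at 1087.5 ± 6.73 CPM per kilobase (SD, n = 3), PIP1-2 at 326 ± 5.97, PIP2-1 at 194 ± 9.23, PIP1-1 at 131 ± 2.77, PIP2-2 at 44.5 ± 1.71 and TIP1-1 at 42.5 ± 1.505. PIP2-3 (6.31 ± 0.369) and TIP2-2 (5.97 ± 0.476) followed in CPM per kilobase and overlapped each other, as PIP2-2 and TIP1-1 did. The first 4 places were the same in both genotypes, and TIP2-2, at 40.6 against 5.97 CPM per kilobase, went from well above PIP2-3 to beside it.

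As shares of the summed CPM of the 10 genes, TIP1-2 took 36.3% ± 2.76 in Col-0 and 54.8% ± 0.662 in amiR-mterf2 (SD, n = 3). PIP1-2 went from 25.5% ± 2.96 to 20.3% ± 0.140 and PIP2-1 from 18.1% ± 2.17 to 11.9% ± 0.455 (SD, n = 3). All root-enriched members together took 6.52% ± 0.872 in Col-0 and 2.996% ± 0.0860 in amiR-mterf2 (SD, n = 3). In each mutant library TIP1-2 therefore had more CPM than the other members together, which was the case in 0 of the 3 wild-type libraries. These shares are not corrected for exon length.

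**Figure D4:**
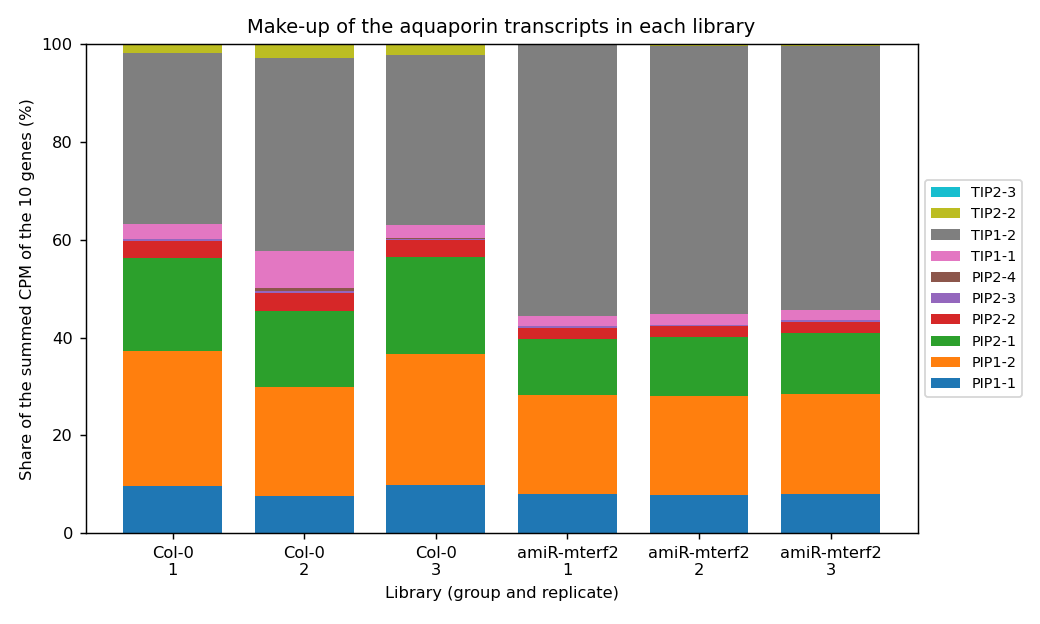
Share of the summed CPM of the 10 aquaporin genes (%, vertical axis) taken by each gene in each library (stacked bars). TIP1-2 takes 34.7% to 39.5% in the Col-0 libraries and 54.0% to 55.3% in the amiR-mterf2 libraries, and TIP2-2 shrinks from 1.87% or more to at most 0.331%.

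Arabidopsis has 25 other aquaporin genes in these files, of which 16 were tested. PIP2-7 and TIP2-1 rose, NIP1-1, NIP6-1, SIP1-1 and SIP2-1 fell, and 10 did not pass the threshold (edgeR), so that 6 of 16 were called, close to the 36.4% of all tested genes. Their median log2 fold change was -0.32. TIP2-1 (AT3G16240), the delta-type tonoplast channel, had 485, 626 and 499 CPM in Col-0 and 859, 844 and 867 CPM in amiR-mterf2. PIP2-7 (AT4G35100), a salt-responsive PIP2 isoform, had 316, 398 and 315 CPM in Col-0 and 658, 627 and 650.5 CPM in amiR-mterf2. In both genes every mutant library exceeded every wild-type library, with log2 fold changes of 0.68 (SE 0.115, edgeR adjusted p = 9.18e-04) for TIP2-1 and 0.91 (SE 0.115, edgeR adjusted p = 1.16e-04) for PIP2-7. TIP2-1 shares 120 exon bases with AT3G16250 on the opposite strand, and since the handling of strand is not given in the sources used here, reads there are uncertain.

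NIP6-1 (AT1G80760), a boric acid channel of shoot nodes, was counted 76, 40 and 87 times in the Col-0 libraries, against 7, 24 and 6 times in amiR-mterf2, with no overlap in CPM and a log2 fold change of -2.33 (SE 0.470, edgeR adjusted p = 0.00273). SIP2-1 (AT3G56950) and SIP1-1 (AT3G04090), aquaporins of the endoplasmic reticulum, had log2 fold changes of -1.14 (adjusted p = 0.00225) and -0.36 (adjusted p = 0.0443, edgeR). The call of SIP1-1 was lost with the replicate block, with scaling on nuclear genes, without the filter, without Col-0 replicate 3 and without amiR-mterf2 replicate 1, 2 or 3, over an adjusted p of 0.0123 to 0.163 in all alternatives (edgeR and DESeq2). SIP2-1 shares 147 exon bases with AT3G56940 on the opposite strand, with the same uncertainty as TIP2-1. NIP1-1 (AT4G19030), which also passes arsenite and antimonite, was counted 10, 186 and 22 times in the Col-0 libraries, against 8, 3 and 2 times in amiR-mterf2. Its call rested on Col-0 replicate 2, without which the log2 fold change went from -4.00 to -1.65 (adjusted p = 0.0881, edgeR). TIP4-1 (AT2G25810), a tonoplast isoform of roots, was likewise highest in that library, with 4, 124 and 2 counts in Col-0 and 0 counts in each amiR-mterf2 library. It was below the filter, and without the filter it was called lower (edgeR adjusted p = 0.00258). Without Col-0 replicate 2, 4 of the other aquaporins were higher and 5 lower, where 42.9% of all tested genes were called in either direction. PIP1-3 (log2 fold change 0.21, adjusted p = 6.96e-04) and TIP3-2 (3.06, adjusted p = 0.0106, edgeR) then joined the higher ones, while PIP2-6 (-0.31, adjusted p = 1.50e-04) and PIP1-5 (-0.18, adjusted p = 0.0422, edgeR) joined the lower ones. TIP3-2 was counted 0 and 4 times in Col-0 replicates 1 and 3, against 21, 16 and 9 times in amiR-mterf2. It passed the filter through the mutant alone, so that a rise was favoured by how it entered. In the same way NIP6-1 and NIP1-1 passed the filter with all libraries through Col-0 alone, which favoured a fall. TIP3-2 is overlapped by a noncoding gene on the opposite strand over 564 exon bases, which makes its reads uncertain.

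**Figure D5:**
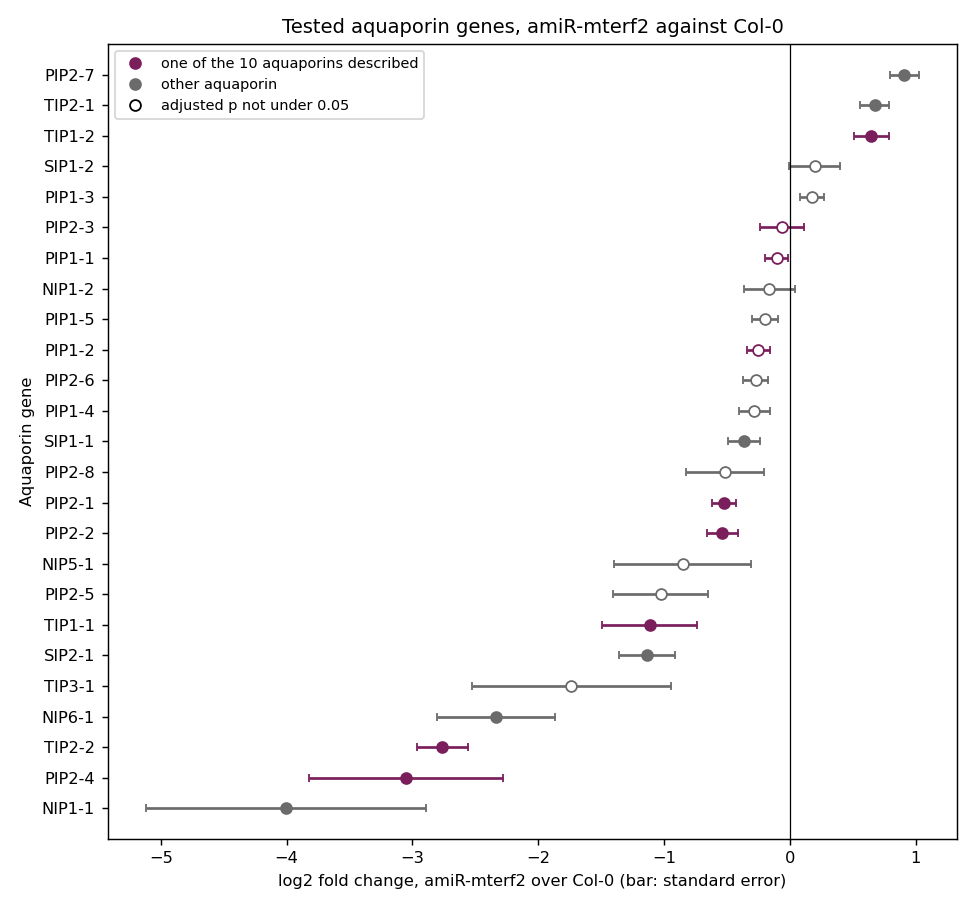
Log2 fold change with standard error (horizontal axis, amiR-mterf2 over Col-0) of the 25 aquaporin genes with enough counts, in order of the estimate. Filled symbols have an adjusted p under 0.05; 3 genes rose (PIP2-7, TIP2-1 and TIP1-2) and 9 fell.

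Among 8 genes known to act on PIP proteins, 3 rose, 1 fell and 4 did not pass the threshold (edgeR), against 36.4% of all tested genes called. RMA1 and RMA2, ubiquitin ligases of the endoplasmic reticulum whose pepper relative removes PIP2-1 when expressed in Arabidopsis, rose from 37.8 ± 7.34 to 79.9 ± 1.66 CPM and from 19.6 ± 3.17 to 36.1 ± 1.73 CPM (SD, n = 3). Their log2 fold changes were 1.08 (adjusted p = 1.57e-04) and 0.88 (adjusted p = 4.40e-04, edgeR). SYP121, a syntaxin that brings PIP proteins to the plasma membrane, had a log2 fold change of 0.65 (adjusted p = 0.0124, edgeR). Its call was lost with total counts and without amiR-mterf2 replicate 2 or 3 (adjusted p = 0.0648, 0.0537 and 0.0634, edgeR), within 0.00633 to 0.0648 over all alternatives. TSPO, which takes PIP2-7 to degradation, was counted 14, 23 and 14 times in the Col-0 libraries, against 2, 2 and 1 times in amiR-mterf2 and fell (log2 fold change -3.17, adjusted p = 0.00360, edgeR). TSPO passed the filter on low counts through Col-0 alone, so that a fall was favoured by how it entered. With at least 10 counts required in every library it was not tested. SYP61, RMA3 and the receptor kinases SIRK1 and QSK1 had log2 fold changes between -0.23 and 0.25, and QSK1 was called higher without Col-0 replicate 2 (0.72, edgeR adjusted p = 1.12e-05).

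Profiles over the 6 libraries were compared by the root mean square difference of their centred log2 CPM, as a description. TIP1-2 was most like TIP2-1 (0.06), PIP1-1 most like PIP1-2 (0.07), PIP1-2 most like PIP1-5 (0.06), and PIP2-1 and PIP2-2 most like each other (0.12) among the other tested aquaporins. PIP2-3 was most like PIP1-4 (0.14) and TIP1-1 most like NIP5-1 (0.29), on the same log2 scale. PIP2-4 and TIP2-2 had no close partner among the tested aquaporins, since the nearest, NIP1-1 and NIP6-1, were 0.62 and 0.71 away. TIP2-3 and TIP4-1, which were below the filter, were not compared. Among all other tested genes, AT1G80530, AT3G09440 and CID10 were closest to the mean profile of the 9 tested members (0.07, 0.08 and 0.08).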

How the data were processed

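The 6 libraries were made from rRNA-depleted total RNA and sequenced as read pairs, with 3 independent biological replicates per genotype. The authors deposited unnormalized exon counts for each gene. Per the file headers the reads were aligned with HISAT2, while the submitters' processing notes list Trimmomatic, FastQC, TopHat2 2.1.1, featureCounts and the build TAIR10. The annotation, the strand setting and the treatment of multi-mapping reads are not given in the sources used here, so that counts of similar or overlapping genes may be shifted. Depth was 18004935 to 21832003 counts per library, and floors of 3 counts cover counting error only.

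Genotypes were compared with edgeR 4.0.16 in R 4.3.3 (filterByExpr at 10 counts, 15 in total, TMM, quasi-likelihood test without covariates, Benjamini-Hochberg threshold 0.05). Each standard error is the log2 fold change over the root of its F statistic. DESeq2 1.42.0 was an alternative, as were other scalings and filters, a replicate block, and fits that lacked 1 library each. The edgeR and DESeq2 tests were tested on simulated data. Exon lengths and sequences come from RefSeq's TAIR10.1, and all coordinates are those of TAIR10.1. Of the 36917 identifiers in the files, 36632 matched it. Sequences were handled in Python 3.11.15 with Biopython 1.88.

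All 10 members, the rest of the family, regulators and markers were named by membership, and for likeness the nearest profiles were taken. Members and lists were chosen with earlier results of these data known.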

Additional observations from a re-analysis of the deposited data

How the results depend on the processing

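The members kept their counts of 5 lower and 1 higher genes, within 1.5 times, under every alternative except 1 left-out library. The genes behind the count of lower members changed. PIP1-2 took the place of TIP1-1 with the DESeq2 Wald test (adjusted p = 0.0292 and 0.120, DESeq2). TIP2-3 took it without amiR-mterf2 replicate 3 (adjusted p = 0.0376 and 0.119, edgeR). With each library left out in turn, 3 to 6 members were lower (3 without amiR-mterf2 replicate 2), and 2 to 4 other aquaporins were higher and 2 to 5 lower. Over all genes 2479 to 4045 were higher and 2489 to 3804 lower, which was 13.4% to 22.1% and 13.5% to 20.8% of those tested. Scaling by total counts without TMM gave 2131 higher and 4136 lower genes in place of 3248 and 3261 (34.0% against 49.9% of the called genes higher). It moved the median of all genes from -0.02 to -0.17, and gave 8 lower genes among the other aquaporins in place of 4. The share of all tested genes that were lower was 23.1% in place of 18.2%. TIP1-2 was higher and TIP2-2 lower under each scaling. The estimate for PIP2-3 reversed, to 0.11, without Col-0 replicate 2. The difference of -1.17 between the classes was -0.58 with PIP1-1 counted as root-enriched and -2.89 without PIP2-2 and PIP2-3, and -1.24 to -1.05 with each library left out. With at least 10 counts in every library, an alternative added for the regulators after the data had been seen, 0 of them were lower, since TSPO was then not tested.

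With the replicate block 5 members were lower and 1 higher. Of all genes, 3126 (17.5% of those tested) were then lower and 3146 (17.6%) higher. The deviations of same-numbered libraries from their group means correlated at 0.03, 0.03 and -0.01, and those of unlike-numbered libraries at -0.04 to 0.02. With so few libraries these values cannot show whether libraries of the same number shared a batch. Not every library correlated best with its own number. Depth limits TIP2-3, which had 0, 0 and 4 counts in amiR-mterf2.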
